A study of Mus musculus with 8 samples.

Results

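The genes examined here encode the subunits of oxidative phosphorylation (OXPHOS) that are made from nuclear DNA. They were taken by name as every gene whose symbol starts with Nduf and a, b, c, s or v, or with Uqcr, Cox4i, Cox5, Cox6, Cox7, Cox8 or Atp5, together with Sdha, Sdhb, Sdhc and Sdhd, and symbols holding "-ps" (pseudogenes) were left out. The rule found 90 of the 17921 genes in the count table, or 0.502%. By complex, 36 belonged to complex I, 4 to complex II, 8 to complex III, 18 to complex IV and 16 to complex V. The other 8 were Ndufaf genes, which help to assemble complex I and are not subunits of it. The remaining 82 of the 90 were counted with a complex by name, which does not make each of them an established subunit. Ndufa4 and Ndufa4l2 were counted with complex IV, where their products sit in spite of their names, as was Cox7a2l.

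OXPHOS is the last stage of respiration in the inner mitochondrial membrane. Complexes I and II pass electrons from NADH and succinate to ubiquinone, complex III passes them on to cytochrome c, complex IV hands them to oxygen, and complex V makes ATP from the proton gradient that complexes I, III and IV build. Complexes I, III, IV and V also hold subunits made from mitochondrial DNA, so both genomes supply each of them, while complex II is encoded in the nucleus alone. Several subunits of complexes IV and V come in alternative forms that differ between tissues. Alveolar macrophages are resident cells of the airspace known for high lipid turnover and respiration, whereas neutrophils live mostly on glycolysis.

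Each library held the cells of 1 left lung graft, collected 1 month after transplantation (LTx) from mice given no immunosuppression. In the 5 B6→B6 mice, C57BL/6 lungs were placed in C57BL/6 recipients. In the 3 HLA→B6 mice, which model bronchiolitis obliterans syndrome (BOS), the donors were C57BL/6 mice that carry a human transgene, Tg(HLA-A2.1)1Enge, and the recipients were again C57BL/6. All mice were male, their ages are not given in the sources used here, and a graft holds cells of both the donor and the recipient. RNA was counted by unique molecular identifiers (UMIs), 1 per captured transcript at its 3′ end, so the length of a gene does not enter its level.

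The 8 libraries held 868 to 6544 cells and 1669076 to 12445769 UMIs each, 20778 cells in all, with medians of 1356 to 1948 UMIs per cell. The members took 939864 of 43747478 UMIs (2.15%), and 1.68% to 2.37% in a single mouse. A member had a median of 8116.5 UMIs over all cells, and only Cox8b, at 27 UMIs, had fewer than 100. The libraries of 4 mice, HLA→B6 replicate 2 and the B6→B6 replicates numbered 1, 2 and 3, shared 39 to 160 cell barcodes in 5 of their 6 pairs. From the median sharing rate over all pairs of libraries 1.92 to 6.67 were expected. In the other pair, B6→B6 replicate 3 and HLA→B6 replicate 2, they shared 23 against 12.03 expected. Cells with a shared barcode had the same type label in 77.5% to 97.5% of cases in the 5 pairs and in 52.2% in the other. In the remaining pairs of libraries that shared any barcode it was 0% to 50%. The cause was not tested. In all 1014 cells (4.88%) carried a barcode found in another mouse, and the comparisons were repeated without these cells. Only the group comparison of alveolar macrophages was also repeated without the 4 libraries, and its values are given below for Ndufa4 and Atp5g3. Levels are given as CPM, the UMIs of a gene per 1000000 UMIs, both summed over the cells of a type in 1 mouse.

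The authors' cell type labels were checked against marker genes. Cells labelled leukocyte carried neutrophil genes, with 6 markers (among them S100a8, S100a9 and Retnlg) summing to 135006 to 226356 CPM in each mouse. Cells labelled mast cell carried markers of mast cells or basophils, led by Mcpt8, and those labelled myeloid cell held cycling and dendritic cell genes. Within the lung structural cells, the set called fibroblasts and smooth muscle (structural cluster 3) carried fibroblast, smooth muscle or pericyte and also endothelial genes, the 5 endothelial markers summing to 1859 to 4150 CPM in a mouse, and clusters 1 and 2, labelled epithelial, carried endothelial genes. Structural cluster 4 was red blood cells.

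In cells labelled alveolar macrophage the label held in B6→B6 mice and much less in HLA→B6 mice. There, 8 alveolar macrophage markers summed to between 10635 and 13325 CPM in the B6→B6 mice but to between 348 and 4700 CPM in the HLA→B6 mice, lowest in replicate 2. Monocyte markers were at 126 to 643 CPM in the B6→B6 mice and at 509 to 831 CPM in the HLA→B6 mice. Cells with UMIs of at least 2 of the 8 markers made up 44.4% to 97.2% of these cells in B6→B6 mice and 12.7% to 51.8% in HLA→B6 mice, and cells with a UMI of a C1q gene made up 1.61% to 45.4% and 56.9% to 80.0%. Hemoglobin and other red cell genes ran the other way, at 361 to 17007 CPM against 5 to 456 CPM. The shares, the members named between the groups and the counts of each gene list are therefore given a second time for the cells with at least 2 markers. Even these cells differed between the groups. Ear2 was at 2121 to 2369 CPM in B6→B6 mice and at 1638, 250 and 1272 CPM in HLA→B6 replicates 1 to 3. Mrc1 was at 500 to 744 CPM against 478, 156 and 427 CPM, and C1qb at 0 to 676 CPM against 782, 1329 and 694 CPM. Chil3 overlapped, at 6005 to 9856 CPM against 1307 to 6030 CPM.

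The regions before the start sites of the members were searched for 3 motifs of factors known to act on respiratory genes, NRF1 (its consensus palindrome, in capitals in the Cox6a1 sequence), ETS or GABP (CCGGAAGT) and YY1 (AAGATGGC), on both strands of the RefSeq promoter windows of build GRCm38.p6 (250 bases before and 50 after the start). Of the 90 members, 75 had a window. NRF1 matched 7 of them (9.33%) against 1.07% of 27025 genes, ETS or GABP matched 5 (6.67%) against 4.31%, and YY1 matched 11 (14.7%) against 3.19%. In 9 of the 11 the YY1 match lay after the start site, and 7 of the 11 genes belonged to complex I, which held 32 of the 75 members with a window. Any of the motifs was found in 23 members (30.7%) against 8.22% of all genes, and no member held more than 1 of them. The bases before the start of 5 members are printed, since Ndufa4, Cox6b2 and Atp5g3 are the members that fell in alveolar macrophages (none of them holds a motif), while Cox6a1 shows an NRF1 match and Uqcrh an ETS match. They are from RefSeq, lie on the minus strand, and stop before both the RefSeq start and the GENCODE gene end, at chr6:11907498-11907700 (Ndufa4), chr7:4753095-4753344 (Cox6b2), chr2:73911327-73911576 (Atp5g3), chr5:115348982-115349208 (Cox6a1) and chr4:116075072-116075320 (Uqcrh). Capitals mark the motif, and each sequence runs 5′ to 3′ toward its gene.
Ndufa4: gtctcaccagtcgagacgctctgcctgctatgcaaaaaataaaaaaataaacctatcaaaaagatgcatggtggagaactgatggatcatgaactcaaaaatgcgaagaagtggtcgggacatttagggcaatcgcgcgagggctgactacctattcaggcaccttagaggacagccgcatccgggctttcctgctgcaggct
Cox6b2: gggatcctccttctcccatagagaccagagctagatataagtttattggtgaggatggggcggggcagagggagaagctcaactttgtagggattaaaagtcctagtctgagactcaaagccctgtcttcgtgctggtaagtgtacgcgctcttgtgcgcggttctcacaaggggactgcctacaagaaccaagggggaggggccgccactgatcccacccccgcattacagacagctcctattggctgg
Atp5g3: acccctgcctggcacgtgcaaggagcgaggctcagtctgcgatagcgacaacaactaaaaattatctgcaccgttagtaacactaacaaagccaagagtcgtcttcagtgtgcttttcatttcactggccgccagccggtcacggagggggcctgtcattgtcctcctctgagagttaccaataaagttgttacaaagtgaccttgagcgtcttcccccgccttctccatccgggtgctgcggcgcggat
Cox6a1: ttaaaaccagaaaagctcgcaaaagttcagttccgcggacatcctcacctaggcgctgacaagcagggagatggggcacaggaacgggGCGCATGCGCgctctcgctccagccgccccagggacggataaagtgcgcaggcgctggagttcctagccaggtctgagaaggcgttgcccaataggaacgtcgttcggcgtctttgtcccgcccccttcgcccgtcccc
Uqcrh: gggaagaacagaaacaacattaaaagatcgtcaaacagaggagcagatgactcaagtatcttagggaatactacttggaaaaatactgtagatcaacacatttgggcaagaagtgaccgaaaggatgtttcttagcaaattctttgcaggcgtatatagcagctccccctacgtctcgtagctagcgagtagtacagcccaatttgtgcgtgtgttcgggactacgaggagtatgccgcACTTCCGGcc

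Over all cells the highest member was Cox4i1, which encodes a core regulatory subunit of complex IV, at 1014 ± 149 CPM (SD, n = 8 mice). Among the next were Atp5l of complex V (666 ± 54 CPM), Cox8a (662 ± 101 CPM) and Cox7c (636 ± 86 CPM) of complex IV, and Atp5e (596 ± 54 CPM) and Atp5b (509 ± 73 CPM) of complex V, the latter the catalytic beta subunit. Whether these neighbours, from Atp5l to Atp5e, differ within the same mice was not tested. In complex III, Uqcrh, the hinge protein, was at 586 ± 61 CPM, Uqcr11 at 312 ± 49 CPM and Uqcr10 at 306 ± 61 CPM. The highest members of complex I were lower, Ndufa3 at 417 ± 47 CPM, Ndufa2 at 370 ± 47 CPM and Ndufa13 at 364 ± 47 CPM.

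Complex II, whose subunits also work in the tricarboxylic acid (TCA) cycle, was lower again. Sdhb, the iron-sulfur subunit, was at 178 ± 42 CPM, Sdha, the flavoprotein, at 119 ± 17 CPM and the membrane anchor Sdhd at 76.6 ± 16.2 CPM, with Sdhc, the other anchor, at 57.6 CPM. At the low end stood the tissue-specific forms, among them Cox4i2 at 19.5 CPM, Cox6b2 at 18.7 CPM, Cox6a2 at 10.6 CPM, Ndufa4l2 at 9.73 CPM, Cox7a1 at 4.36 CPM and Cox8b at 0.777 CPM. All of these low forms belong to complex IV, while Atp5s, listed with complex V, was at 3.82 CPM.

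As a share of all UMIs the members ranged from 2.77% in alveolar macrophages to 0.888% in plasma cells (mean over mice). Alveolar macrophages ran from 2.46% to 3.12% in the 8 mice. Next came myeloid cells at 2.44% (1.90% to 3.06%), natural killer cells at 2.39% (2.15% to 2.63%) and monocytes at 2.37% (2.08% to 2.61%). These 3 types cannot be ordered, since their ranges overlap almost fully, and each overlaps the range of alveolar macrophages.

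T cells followed at 2.04% (1.79% to 2.26%), mast cells at 1.73% in 3 mice, B cells at 1.70% (1.51% to 1.92%), leukocytes at 1.52% (1.15% to 1.95%, 7 mice) and lung structural cells at 1.51% (0.508% to 1.94%). No mouse had a B cell share within the range of the natural killer cells. Plasma cells, with at least 10 cells in 2 HLA→B6 mice, were at 0.883% and 0.893%. There the sum is filled by immunoglobulin transcripts, and without immunoglobulin, hemoglobin and mitochondrial genes the plasma cell share was 2.78%, while that of lung structural cells moved to 2.09%. Among structural cells the share was 2.41% in cluster 3, 2.21% in cluster 1, 2.17% in cluster 5, 2.06% in cluster 2 and 1.87% in cluster 0, and 0.143% in the red blood cells of cluster 4.

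**Figure D1:**
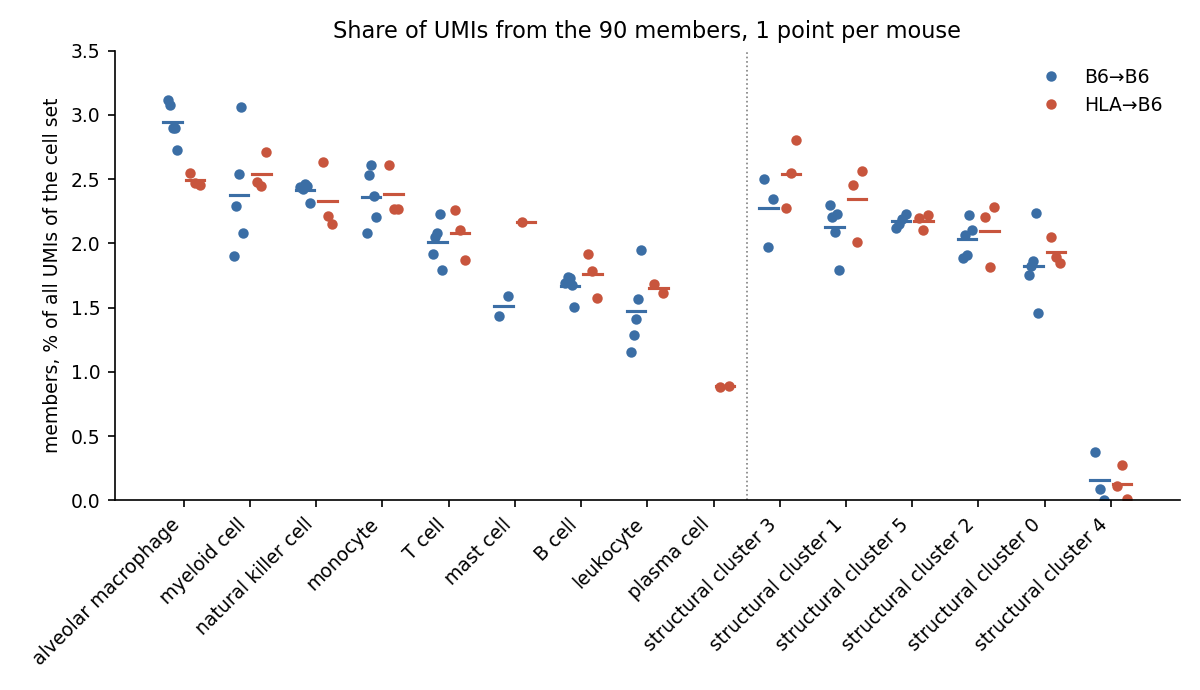
UMIs of the 90 members as a percentage of all UMIs of a cell type or structural cluster (vertical axis), with 1 point per mouse with at least 10 cells and a line at each group's mean. In alveolar macrophages the 5 B6→B6 mice lie above the 3 HLA→B6 mice, while the groups overlap in the other types that have several mice of both.

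Between the groups the share of alveolar macrophages was 2.94% ± 0.16 (SD, n = 5) in B6→B6 mice and 2.49% ± 0.05 (n = 3) in HLA→B6 mice, and the groups did not overlap. Complex III (0.332% against 0.262%), complex IV (0.960% against 0.790%) and complex V (0.777% against 0.648%) were also without overlap, whereas complex I (0.803% ± 0.066 against 0.717% ± 0.032) and complex II (0.0492% against 0.0565%) overlapped. Within cells that carried at least 2 alveolar macrophage markers the shares were 3.05% ± 0.25 and 2.76% ± 0.17, which overlapped. In cells without a C1q UMI they were 3.07% ± 0.25 and 2.81% ± 0.23, which overlapped too. The part of the label and of red cell RNA in the difference over all these cells was not tested beyond these restrictions.

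In the other types with at least 2 mice in each group the shares of the groups overlapped. Mast cells, which had 1.44% and 1.59% in 2 B6→B6 mice and 2.17% in 1 HLA→B6 mouse, did not overlap. They were 2.01% ± 0.17 and 2.08% ± 0.20 in T cells, 1.67% ± 0.09 and 1.76% ± 0.17 in B cells, and 2.36% ± 0.22 and 2.38% ± 0.20 in monocytes, B6→B6 first. Natural killer cells gave 2.42% ± 0.06 and 2.33% ± 0.26, myeloid cells 2.37% ± 0.45 and 2.54% ± 0.14, and lung structural cells 1.47% ± 0.55 and 1.56% ± 0.53. In each of these 6 types the difference between the means was smaller than the larger SD.

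The comparison of HLA→B6 with B6→B6 asks how the members differ between rejecting and control grafts in each cell type. In alveolar macrophages 3 members fell (Ndufa4, Atp5g3 and Cox6b2) and 1 rose (Cox7a2l), out of 80 tested. Of all 5798 genes tested in these cells 5.92% fell and 6.36% rose, so fewer members were called than the background share would give in either direction. The test was edgeR's quasi-likelihood test on sums per mouse with an adjusted p under 0.05. The median log2 fold change was 0.016 over the members and -0.025 over all genes tested, so the members as a list stayed level with other genes after scaling, while without scaling the medians were -0.21 and -0.26.

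Ndufa4, an accessory subunit of complex IV (GRCm38 chr6:11900292-11907497, minus strand), was at 689, 509, 431, 448 and 545 CPM in B6→B6 replicates 1 to 5 and at 247, 137 and 221 CPM in HLA→B6 replicates 1 to 3. Every HLA→B6 mouse was below every B6→B6 mouse. The gene fell by 1.17 on the log2 scale (SE 0.21, adjusted p = 0.00998). In cells with at least 2 alveolar macrophage markers it was at 447 to 757 CPM in B6→B6 mice against 88.7 to 241 CPM in HLA→B6 mice (log2 fold change -1.44, adjusted p = 0.00665). The fall was as large there, though these cells still differed between the groups in Ear2, Mrc1 and C1qb. With the libraries that share no barcodes in excess (B6→B6 replicates 4 and 5, HLA→B6 replicates 1 and 3) the log2 fold change was -0.88 (adjusted p = 0.0186).

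Cox6b2, the form of the complex IV subunit 6b that is best known from testis (chr7:4751792-4753094, minus strand), was at 132, 98.1, 69.2, 98.5 and 101 CPM in the B6→B6 mice and at 20.6, 3.54 and 42.0 CPM in the HLA→B6 mice. The groups did not overlap, and the HLA→B6 values rest on 29, 13 and 15 UMIs. It fell by 2.44 on the log2 scale (SE 0.56, adjusted p = 0.0214). In cells with at least 2 markers the levels were 87.4 to 147 CPM against 9.86 to 65.4 CPM (log2 fold change -1.54, adjusted p = 0.0293). Without B6→B6 replicate 4 the adjusted p was 0.0506. Its broadly expressed counterpart Cox6b1 was not called.

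Atp5g3, 1 of 3 genes for the c subunit of the complex V rotor ring (chr2:73908447-73911326, minus strand), was at 475, 472, 496, 428 and 525 CPM in the B6→B6 mice and at 276, 211 and 252 CPM in the HLA→B6 mice, again with no overlap. It fell by 0.74 on the log2 scale (SE 0.14, adjusted p = 0.0103). In cells with at least 2 markers the levels were 434 to 592 CPM and 312 to 386 CPM and the call was lost (log2 fold change -0.37, adjusted p = 0.246). The call was also lost without HLA→B6 replicate 2 (adjusted p = 0.0521) and in the libraries that share no barcodes in excess (adjusted p = 0.0794).

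Cox7a2l, which takes part in building supercomplexes of complexes III and IV (chr17:83501918-83517330, minus strand), was at 392, 457, 415, 407 and 397 CPM in the B6→B6 mice and at 447, 537 and 593 CPM in the HLA→B6 mice. The groups overlapped in CPM, at the lowest HLA→B6 mouse. The gene rose by 0.57 on the log2 scale (SE 0.15, adjusted p = 0.0349), and in cells with at least 2 markers the change was 0.56 with an adjusted p of 0.133. Sdhb (chr4:140961203-140979193, plus strand) stood at 93.0 to 209 CPM in B6→B6 mice and at 213, 311 and 185 CPM in HLA→B6 mice, with a log2 fold change of 0.84 (SE 0.27, adjusted p = 0.0668) that did not pass the threshold.

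**Figure D2:**
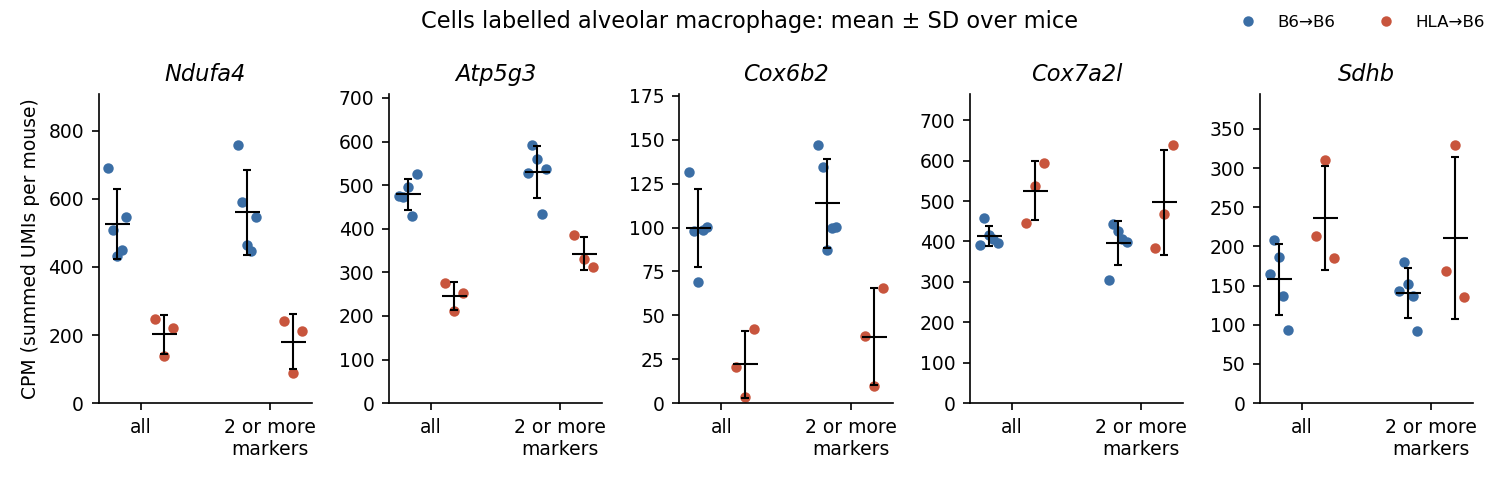
CPM in cells labelled alveolar macrophage for 5 members, in all of these cells (left of each panel) and in the cells with at least 2 alveolar macrophage markers (right), 1 point per mouse, with the mean and SD of each group in black. Ndufa4, Atp5g3 and Cox6b2 lie lower in every HLA→B6 mouse, while the groups overlap for Cox7a2l and Sdhb.

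At an unadjusted p under 0.05 in edgeR there were 9 of 80 members in alveolar macrophages, 6 higher and 3 lower, where 29.1% of all genes tested passed. DESeq2 called 5 members at the adjusted threshold, 2 higher and 3 lower. Without the cells that share a barcode with another mouse edgeR called 8, 5 higher and 3 lower, and with the set of libraries that share barcodes as a block 9, 6 higher and 3 lower. The shares of all genes called by DESeq2 and at these settings are not given here, so these counts have no background beside them. In plain CPM 20 members lay lower in every HLA→B6 mouse than in any B6→B6 mouse, where 17.7% of all genes tested did so, and none lay higher, where 5.14% did. Of the 20, 7 belonged to complex IV, 5 to complex I, 5 to complex V and 2 to complex III, and 1 was an assembly factor. The median log2 fold change was 0.05 for complex I, 0.31 for complex II, -0.09 for complex III, -0.11 for complex IV and 0.03 for complex V. Cox4i1, the main form of subunit 4, was among the 20.

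Other genes of energy metabolism were counted in the same test. Of 16 glycolysis genes tested, 4 rose and none fell, with Ldhb (log2 fold change 2.90), Hk3 (2.10) and Pfkl (1.60) the examples with the largest changes, and the list's median was 0.67. Of 18 TCA cycle genes only Idh3b rose (0.74), and the median was 0.01. Of 7 regulators of mitochondrial biogenesis tested Myc (-2.09) and Pparg (-0.95), the latter a lipid-sensing receptor that alveolar macrophages need, fell. Of 13 genes for electron carriers and ADP exchange Chchd10 (1.64) rose. None of 12 subunits encoded by mitochondrial DNA was called, and their median was 0.17. In the cells with at least 2 alveolar macrophage markers, where 4.27% of all genes rose and 1.68% fell, most of these calls did not hold. There Pfkl (1.74, adjusted p = 0.110), Idh3b (0.65, adjusted p = 0.213), Myc (-1.59, adjusted p = 0.0640) and Pparg (-0.46, adjusted p = 0.299) did not pass edgeR's test, and Ldhb and Hk3 were too low to be tested. Chchd10 rose there too (2.02, adjusted p = 0.0195), as did 2 of 13 glycolysis genes, Pgam1, which was also called over all labelled cells, and Hk2, which was not. Of 12 mitochondrially encoded subunits mt-Co1 and mt-Co3 rose in these cells. These last 4 genes were named after their values were seen.

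In no other cell type was a member called between the groups. T cells had 82 members tested, against a background of 0.0698% of genes called in either direction. The smallest p values there were those of Atp5a1, the alpha subunit of complex V (log2 fold change -0.37, adjusted p = 0.595), Ndufs4 (-0.38, adjusted p = 0.756) and Ndufs6 (0.32, adjusted p = 0.772). B cells had 80 tested, against 0.117% called, and Ndufc2 (0.41), Ndufa12 (0.38) and Ndufb5 (0.31), all of complex I, had the smallest p values. In T cells and in B cells 1 member each had an unadjusted p under 0.05, as did 7.45% and 4.72% of all genes tested.

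Monocytes had 77 members tested, against 0.023% of genes called, with Ndufa10 (-0.45), Sdhb (-0.31) and Uqcr10 (0.22) nearest to the threshold. Natural killer cells had 75 tested, with Ndufa5 (-0.39) and Atp5b (-0.24) among those nearest, and in them 0% of genes were called. Neither type had a member at an unadjusted p under 0.05, where 5.03% of all genes tested in monocytes and 3.25% in natural killer cells were. Myeloid cells had 80 tested, 1 of them (Ndufs6, -0.88, adjusted p = 0.817) at an unadjusted p under 0.05, and leukocytes 34 tested with none. Of all genes 4.89% and 5.15% were under that unadjusted p, and 0% were called in either type. In myeloid cells Cox6a2 (1.36) and Cox6b2 (-1.29) were next, each with an adjusted p of 0.999. In leukocytes Cox4i1 (0.51), Ndufa4 (0.66) and Ndufa13 (0.45) were nearest.

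In lung structural cells none of 83 members was called, where 0.604% of all genes were. An unadjusted p under 0.05 was found for 2 members and for 8.34% of all genes tested. Ndufc2 (0.53, adjusted p = 0.248), Cox4i2 (0.85, adjusted p = 0.525) and Ndufa4l2 (0.68, adjusted p = 0.631) had the smallest p values. Their 12 tested mitochondrially encoded subunits were not called either, with a median of 0.78. Taken by cluster, 76 members were tested in cluster 0 (0.686% of genes called), 71 in cluster 1 (1.02%) and 66 in cluster 3 (0.317%, 6 mice). Of them 3, 4 and 0 had an unadjusted p under 0.05, where 7.68%, 7.79% and 13.0% of all genes tested did. Ndufc2 led cluster 0 (0.67, adjusted p = 0.391), before Atp5e (0.57, adjusted p = 0.525) and Ndufa9 (0.75, adjusted p = 0.580). Ndufa1 led cluster 1 (0.82, adjusted p = 0.433), before Cox6c (0.63, adjusted p = 0.483) and Atp5k (0.60, adjusted p = 0.615). Sdhb led cluster 3 (0.96, adjusted p = 0.400), before Ndufs8 (0.81, adjusted p = 0.491) and Ndufb5 (0.67, adjusted p = 0.513). DESeq2 called 0 members in all of these types and clusters.

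**Figure D3:**
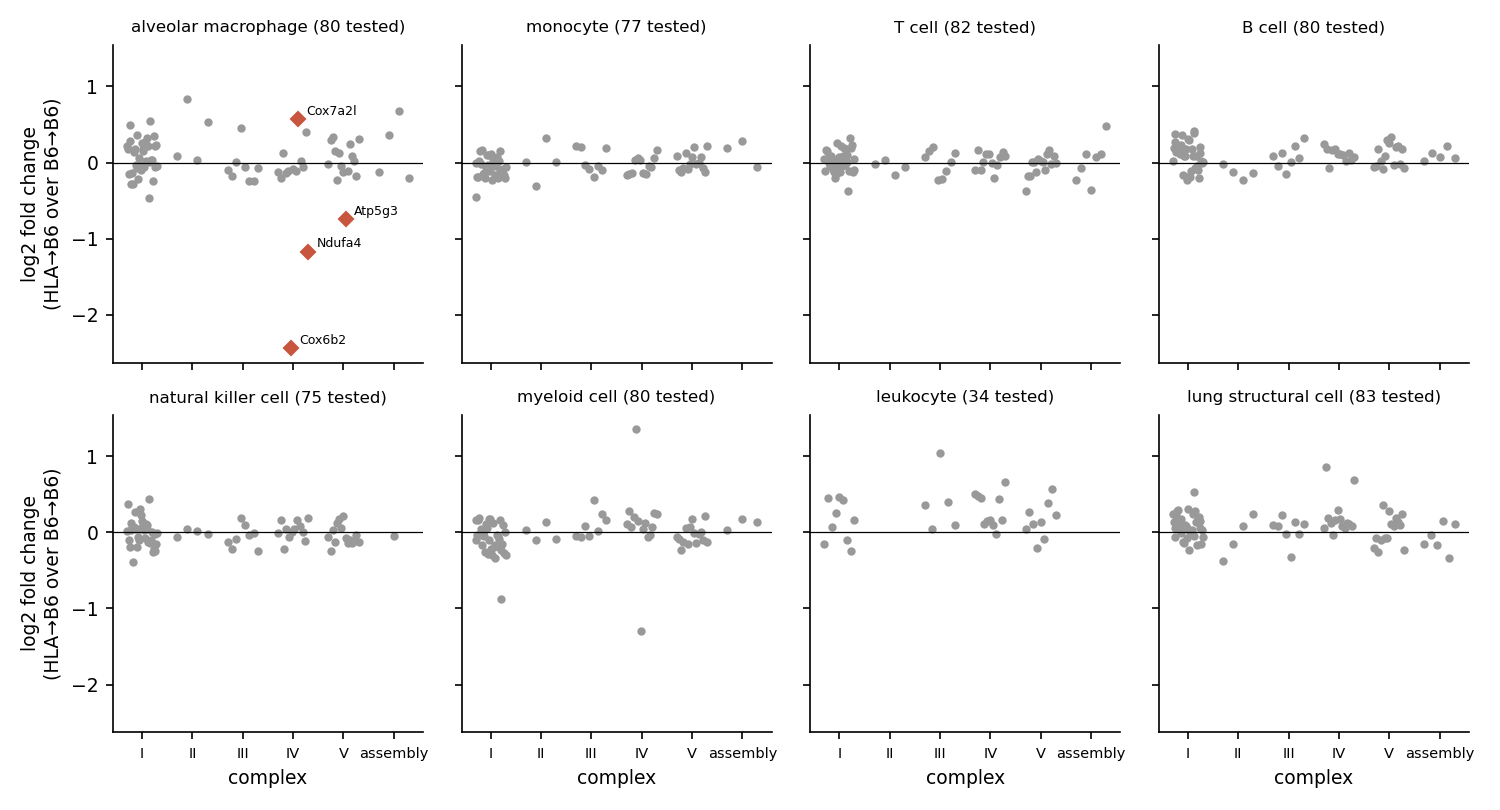
Log2 fold change of HLA→B6 over B6→B6 (vertical axis) for each member tested, by complex, in 8 cell types; red diamonds passed an adjusted p under 0.05 and grey points did not. The 4 red diamonds all lie in alveolar macrophages, from -2.44 for Cox6b2 to 0.57 for Cox7a2l.

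The effect of the group on each gene was also compared between types. Ndufa4 was at 370 ± 37 CPM in monocytes of B6→B6 mice and at 427 ± 32 CPM in those of HLA→B6 mice, so the fall in alveolar macrophages had no counterpart there. The difference between the effects was -1.31 on the log2 scale (SE 0.26, adjusted p = 0.0187). For Sdhb, at 254 ± 51 and 212 ± 53 CPM in monocytes, the difference was 1.13 (SE 0.26, adjusted p = 0.0325), with the effect in alveolar macrophages the higher. These were 2 of 82 members tested, 1 in each direction, where 1.56% of all genes had a positive and 0.73% a negative difference, and neither was called without HLA→B6 replicate 2. In the alveolar macrophages with at least 2 markers the difference for Ndufa4 was -1.68 (adjusted p = 0.00891) and that for Sdhb was 1.03 (adjusted p = 0.115). Between lung structural cells and T cells none of 85 members differed in effect, against 0.0103% of genes. An unadjusted p under 0.05 in edgeR was found for 2 members and for 5.86% of all genes tested. Ndufc2 (0.60, adjusted p = 0.782), Ndufa4l2 (2.57, adjusted p = 0.820) and Ndufaf4 (0.50, adjusted p = 0.917) had the smallest p values.

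Cell types were compared with each other in the same mice, with the mouse as a block. The labels came from clustering these counts, so the p values describe the labels. Alveolar macrophages had 29 members higher and 6 lower than monocytes, of 82 tested in 8 mice, where 23.4% of all genes were higher and 21.6% lower. The member median was 0.15 and that of all genes 0.02. By complex, 10 rose and 2 fell of 36 in complex I, 2 and 0 of 4 in complex II, 3 and 1 of 8 in complex III, 8 and 1 of 14 in complex IV, and 5 and 1 of 15 in complex V. With the alveolar macrophages that had at least 2 markers 33 members were higher and 9 lower, where 26.8% of all genes were higher and 23.3% lower.

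Cox7a1, known as the heart and muscle form of subunit 7a, had the largest rise, from 1.82 ± 2.09 CPM in monocytes to 16.6 ± 10.4 CPM in alveolar macrophages (log2 fold change 2.65). Atp5g3 was at 392 ± 125 CPM against 144 ± 46 CPM (1.34), and Atp5g2, another c subunit gene, at 566 ± 81 CPM against 287 ± 63 CPM (0.96). Ndufa5 of complex I (156 against 77.9 CPM, 0.92), Sdhc (91.5 against 51.3 CPM, 0.80) and Uqcr11 (564 against 324 CPM, 0.77) followed. All 6 were higher in 8 of 8 mice. Cox6b2 was at 70.5 CPM against 15.6 CPM (1.70) and was higher in 7 of the 8.

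The largest fall was that of Ndufaf7, a methyltransferase used in the assembly of complex I, from 34.8 to 7.61 CPM (log2 fold change -2.14). Uqcrc1, a core subunit of complex III, was at 113 CPM against 198 CPM (-0.83), Ndufa6 at 321 CPM against 521 CPM (-0.71) and Ndufs8 at 106 CPM against 149 CPM (-0.50), each lower in every mouse. The mitochondrially encoded subunits were higher as well, 12 of 13 with none lower (median 0.80). Of 18 glycolysis genes 3 rose and 5 fell, and of 18 TCA cycle genes 2 rose and 2 fell. In the cells with at least 2 markers 3 glycolysis genes rose and 6 fell, and TCA cycle genes gave the same counts.

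**Figure D4:**
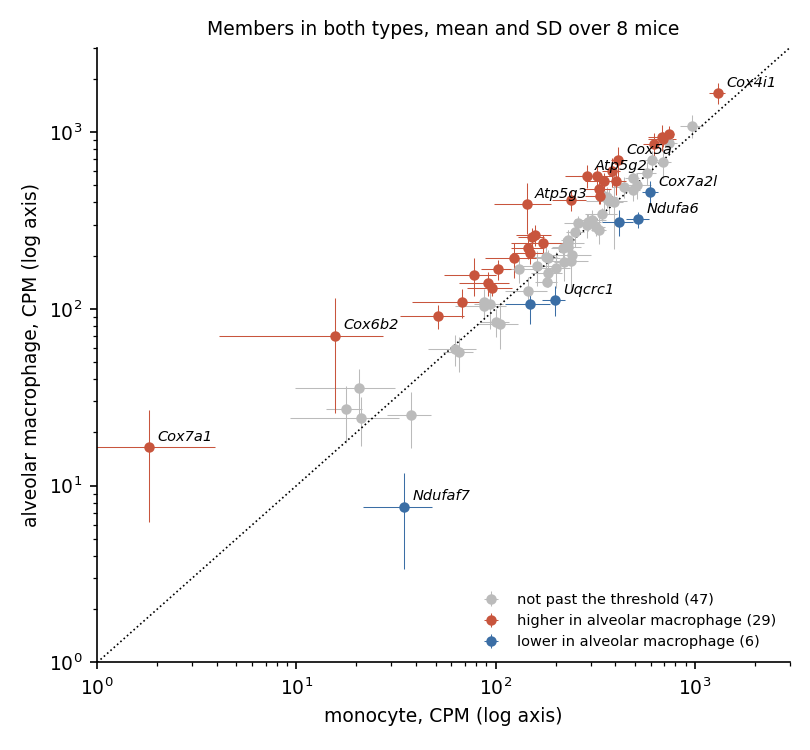
Mean CPM of each member tested in alveolar macrophages (vertical) against monocytes (horizontal), both on log axes, with the SD over 8 mice; the dotted line marks equal levels. Red points (29) were higher and blue points (6) lower in alveolar macrophages, and Cox7a1, Cox6b2 and Ndufaf7 lie farthest from the line.

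Leukocytes, the set with neutrophil markers, had none of 77 members higher and 62 lower than monocytes in 7 mice, where 17.4% of all genes were higher and 44.7% lower. The median was -1.21 over the members and -0.60 over all genes. Every complex had a negative median, from -0.83 in complex II to -1.45 in complex V. Ndufa9 of complex I was at 5.20 CPM against 68.2 CPM in monocytes (log2 fold change -3.24) and Atp5g3 at 9.50 CPM against 136 CPM (-3.15). Atp5g3 had 0 UMIs in the leukocytes of all 5 B6→B6 mice. Ndufa11 (29.3 against 200 CPM), Atp5g1 (26.8 against 236 CPM), Ndufc2 (19.4 against 169 CPM) and Atp5o.1 (43.3 against 227 CPM) fell by 2.54 to 3.09 on the log2 scale, and all 6 were lower in every mouse.

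The mitochondrially encoded subunits of leukocytes were lower in 9 of 12 and TCA cycle genes in 12 of 14, with none higher, while glycolysis genes were split, 3 higher and 6 lower of 15. The number of members called fell to 37 without B6→B6 replicate 2 or 3. It was 41 without cells that share a barcode with another mouse and 40 with at least 20 cells of each type in a mouse.

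Plasma cells had 18 members higher and 1 lower than B cells, of 79 tested in 2 HLA→B6 mice, where 13.4% of all genes were higher and 15.1% lower. Ndufa1 of complex I was at 353 ± 22 CPM against 158 ± 23 CPM (log2 fold change 2.72), and Cox7a2l at 96.4 CPM against 596 CPM (-1.17), in the same direction in both mice. The direction of the other members depends on the scaling, since immunoglobulin transcripts fill the plasma cell sums, and with no scaling 1 member was higher and 63 were lower. All 18 were higher in both mice once immunoglobulin and hemoglobin genes were left out of the CPM. Of 12 mitochondrially encoded subunits none was higher and 10 were lower.

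Among B cells, cluster 1 had 9 members higher and none lower than cluster 0, of 78 tested in 4 mice, where 6.58% of all genes were higher and 4.21% lower. They were Ndufc2 (0.87), Atp5g1 (0.77), Cox5a (0.61), Cox7b (0.61), Uqcr10 (0.57), Atp5g2 (0.55), Ndufb5 (0.54), Ndufa4 (0.47) and Cox6b1 (0.45). The member median was 0.28 against 0.01 over all genes. Of 12 glycolysis genes 5 rose and none fell. DESeq2 called 0 of these members, and so did edgeR without HLA→B6 replicate 2.

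Several complex IV subunits exist in paired forms, and the minor forms differed in the cells that carried them. Cox4i2, a form of subunit 4 known from lung and from oxygen-sensing cells, was at 1320 ± 979 CPM (n = 6 mice) in structural cluster 3, labelled fibroblasts and smooth muscle, where its counterpart Cox4i1 was at 796 ± 247 CPM. The mice with at least 10 of these cells gave 2898, 291 and 584 CPM in B6→B6 replicates 1, 3 and 4 and 747, 1907 and 1492 CPM in the HLA→B6 mice. The groups overlapped, with B6→B6 replicate 1 the highest (log2 fold change 0.28, adjusted p = 0.970). At least 1 UMI of Cox4i2 was found in 38.0% of 345 cells of this cluster and in 1.18% of T cells, which should lack the gene, at median depths of 1210 and 1648 UMIs. Thinned to 500 UMIs per cell the shares were 24.8% and 0.490%. Cox4i2 was also found in 72 of 1347 cells of structural cluster 1 (5.35%, and 3.09% after thinning), of which 91.7% had at least 2 endothelial markers, against 85.5% of the other cells there.

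Ndufa4l2, the counterpart of Ndufa4 known to be raised by hypoxia-inducible factor, followed the same cells. In cluster 3 it was at 1094, 159 and 247 CPM in the B6→B6 mice and at 369, 681 and 619 CPM in the HLA→B6 mice, 528 ± 344 CPM in all, beside Ndufa4 at 390 ± 216 CPM. It had a UMI in 29.0% of cells of this cluster and in 0.749% of T cells (15.98% and 0.272% after thinning). Of 131 cells with Cox4i2 and 100 with Ndufa4l2 in this cluster, 75 held both, and 57.3% of the cells with Cox4i2 had Ndufa4l2 against 11.7% of the other 214. Cells with a UMI of Cox4i2 had UMIs of at least 2 of 7 smooth muscle or pericyte markers in 45.04% of cases, against 15.0% of the other cells of the cluster, and of at least 2 fibroblast markers in 16.8% against 48.1%. For Ndufa4l2 the figures were 51.0% against 16.3% and 17% against 44.1%. At least 2 of 5 endothelial markers were found in 55.7% of the cells with Cox4i2 against 32.7% of the others, and in 54% of those with Ndufa4l2 against 36.3%.

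Cox6a2, the heart and muscle form of subunit 6a, was found in 5.43% of 755 myeloid cells and in 0.0986% of T cells, at median depths of 3400 and 1648 UMIs. Thinned to 500 UMIs the myeloid share was 3.73%. All 41 myeloid cells with Cox6a2 had UMIs of at least 2 of 5 plasmacytoid dendritic cell markers, against 28.4% of the other 714, and none had at least 2 of the cycling markers, against 29.8%. In myeloid cells it was at 59, 91, 16, 6 and 150 CPM in the B6→B6 mice and at 210, 121 and 17 CPM in the HLA→B6 mice, which overlapped (log2 fold change 1.36, adjusted p = 0.999). It was also found in 18 of 32 cells labelled Type 2 pneumocyte (56.3%), from 4 mice, at a median depth of 6600 UMIs (13.3% after thinning). All 18 had at least 2 Type 2 pneumocyte markers, as did all 14 of the other cells. None of the 18 had 2 plasmacytoid dendritic cell markers, against 1 of the other 14. A further 48 of 2494 cells labelled alveolar macrophage held it (1.93%, and 0.329% after thinning), from 6 mice. Of these 62.5% had at least 2 plasmacytoid dendritic cell markers, against 21.5% of the others, and 25% had at least 2 alveolar macrophage markers, against 59.2%, at median depths of 8171 and 2763 UMIs.

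Cox6b2 and Cox7a1 had their highest mean CPM, among the sets plotted, in alveolar macrophages. Cox6b2 had a UMI in 11.8% of these cells, in 3.10% of monocytes and in 0.848% of T cells, and after thinning in 2.75% of alveolar macrophages and 0.344% of T cells. Among alveolar macrophages, 93.9% of the 293 cells with Cox6b2 carried at least 2 alveolar macrophage markers, against 53.8% of the others, at median depths of 3474 and 2702 UMIs. Cox6b2 was also found in 44 of 755 myeloid cells (5.83%, and 0.740% after thinning), of which 1 had at least 2 alveolar macrophage markers and 45.5% had at least 2 dendritic cell markers, against 25.6% of the other myeloid cells. Cox7a1 had a UMI in 3.85% of alveolar macrophages against 0.256% of T cells (0.642% and 0.0686% after thinning), and 80.2% of the 96 cells with it carried at least 2 markers, against 57.6%. Cox8b, with 27 UMIs in all, was at 27 CPM on average in structural cluster 3.

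**Figure D5:**
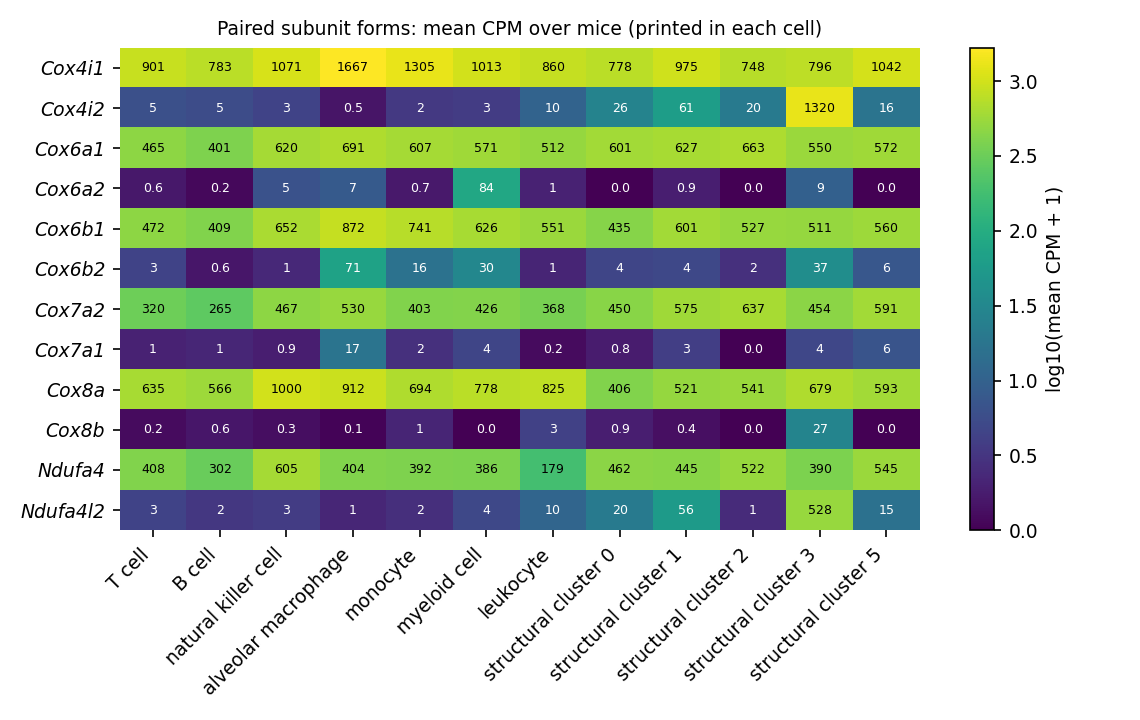
Mean CPM over mice with at least 10 cells for 6 pairs of subunit forms (rows) in 12 cell types or structural clusters (columns); the colour is log10(mean CPM + 1) and the mean CPM is printed in each field. Cox4i1, Cox6a1, Cox6b1, Cox7a2, Cox8a and Ndufa4 are high in every column, whereas Cox4i2 and Ndufa4l2 stand out in structural cluster 3, Cox6a2 in myeloid cells and Cox6b2 and Cox7a1 in alveolar macrophages.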

How the data were processed

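Single-cell suspensions of 8 left lung grafts were sequenced by the authors at transcript 3′ ends on the 10x Genomics platform, 1 library per mouse. The authors deposited whole UMI counts per gene and cell, made with Cell Ranger on mm10 (GRCm38), and a table of cells with types from Seurat clusters and clustifyr. They state a minimum of 200 UMIs per barcode and of 3 cells per gene, and removal of free RNA by SoupX. Whether the counts precede or follow that step is not stated. No column was left unused.

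Counts were summed per mouse and cell type (at least 10 cells), filtered by filterByExpr (minimum count 10), scaled by TMM and tested by edgeR's quasi-likelihood test over all genes with Benjamini-Hochberg adjustment, threshold 0.05. Pairs of types had the mouse as a block. By its label each library is a separate animal, so p values are meant to measure the spread between these mice. They take the libraries as independent, which the barcodes shared in excess between some of them make uncertain. Cell types were labelled from these counts, so p values between types describe the labels. Printed CPM are unscaled, whereas log2 fold changes include TMM. Shares of cells were also computed thinned to 500 UMIs per cell. Shallower cells were left out of these, which kept 4883 of 5071 T cells, 2334 of 2494 alveolar macrophages, 670 of 755 myeloid cells and 300 of 345 cells of structural cluster 3. Doublets (Scrublet, expected rate 0.06) marked 256 cells (1.23%), which were kept and left out in an alternative. Intervals and counts of 0 reflect counting only.

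The members, lists and cell sets were chosen with earlier results of these data known. Per group comparison, up to 10 members past the threshold were named, or the 3 with the smallest p where none passed. Per pair of types, the 6 largest rises and 6 largest falls past the threshold that moved the same way in every mouse were named, as were the 3 highest members of each complex, the paired forms, Sdha to Sdhd, and up to 3 genes of each other list. A gene that this rule names in natural killer cells is not reported here. Cox6b2, Atp5g3, Cox7a2l and Sdhb values beyond this, and the cells positive for minor forms, were chosen after values were seen. Gene coordinates are from GENCODE on GRCm38. Alternatives were RLE factors, DESeq2, no filter on low counts, 20 cells, 500 UMIs per cell, no doublets, no shared barcodes, other blocks, no assembly factors and each mouse left out. Added after seeing the data were no scaling, the restrictions of alveolar macrophages and the libraries without excess shared barcodes alone. Tools were edgeR 4.0.16 and DESeq2 1.42.0 in R 4.3.3, and pandas 2.3.3, numpy 2.4.6, scipy 1.17.1, matplotlib 3.10.9 and scanpy 1.11.5 in Python 3.11.15. The tests were checked on simulated data.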

Additional observations from a re-analysis of the deposited data

Results flagged for a closer look

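B6→B6 replicate 5 lay apart from the other 4 mice of its group in the share of UMIs held by the members in B cells (1.51%), in lung structural cells (0.508%) and in natural killer cells (2.32%), by Dixon's test. Without immunoglobulin, hemoglobin and mitochondrial genes its share in lung structural cells was 1.97%, within the 1.90% to 2.27% of the other 4. In B cells (1.60%) and natural killer cells (2.34%) it was still the lowest of its group. The 3 flags were among 19 measures tested, all in the B6→B6 mice and some of them in nested sets of cells. Chance flags about 1 in 20 of independent tests, which these were not.

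The effect of HLA→B6 grafts on Sdhb differed between alveolar macrophages and monocytes by 1.13 on the log2 scale (edgeR interaction, adjusted p = 0.0325), and that on Ndufa4 by -1.31 (adjusted p = 0.0187). In alveolar macrophages Ndufa4 was lower in 3 of 3 HLA→B6 mice than in any B6→B6 mouse. Both calls were lost without HLA→B6 replicate 2, the mouse with the fewest alveolar macrophage markers in these cells.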

How the results depend on the processing

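In 11 of the 17 comparisons fitted 0 members were called at every one of 204 alternative settings. In alveolar macrophages the 4 calls between groups became 8 without shared barcodes, 9 with linked libraries as a block and 2 with at least 2 markers or without a C1q UMI. They ranged from 2 to 6 with a mouse left out (2 when B6→B6 replicate 4 was left out, and 2 without HLA→B6 replicate 2), and Ndufa4 was called at each of these settings, with adjusted p from 8.56e-05 to 0.0326. Replicate numbers did not pair the mice (correlations of same-numbered mice from -0.476 to 0.424, with 2 of 21 highest with the own number), and the replicate block gave 2 calls there and changed no other count of calls between groups. For plasma against B cells the 19 calls became 4 by DESeq2, 9 with no filter and 64 with no scaling, and for B cell cluster 1 the 9 became 0, 1 and 5 in that order, 4 without shared barcodes, and 0 to 9 with a mouse left out (0 without replicate 2 and 4 without replicate 1 of HLA→B6, and 2 without B6→B6 replicate 2). The 62 calls of leukocytes against monocytes became 40 with at least 20 cells, 41 without shared barcodes and 37 to 53 with a mouse left out. The 2 differences in effect became 4 without shared barcodes, 1 with at least 2 markers or without a C1q UMI, and 0 to 2 with a mouse left out (0 without HLA→B6 replicate 2). The cause was not tested in any of these. Without immunoglobulin, hemoglobin and mitochondrial genes the member share was 2.09% in lung structural cells and 2.78% in plasma cells. The difference in effect on Ndufa4l2 between lung structural and T cells, which was not called, was 2.57 (log2), with a range of -0.524 to 3.41 when a mouse was left out, the negative value without B6→B6 replicate 4. Of the named members' values under the alternatives 1055 stayed on their side of the threshold, 61 lost it and 1, that of Ndufa4l2, changed sign. The 1055 include values of members not called in the main fit, which had no call to lose. They also include the setting without assembly factors, which changes no gene's fit, so they do not measure how stable the calls are. The group comparisons of plasma cells and mast cells could not be fitted, having under 2 mice with enough cells in a group.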
